A study of Mus musculus with 8 samples.

Results

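The glycolysis and hypoxia response genes described here are 34 genes chosen by name: 17 glycolytic enzymes and transporters, and 17 factors and targets of the hypoxia-inducible factors (HIF). They were read, among 32285 genes in the deposited gene lists, in fibroblasts from the joints of 17 mice, and all 34 passed the low-count filter in both fits. Cells came from ankle and wrist synovium, the tissue that lines the joint, and were profiled by droplet RNA sequencing with hashtag antibodies that mark the animal. The arthritic mice carried hTNFtg197, a human TNF transgene (strain B6-Tg(TNF)197Gkl), and had received Il23mc for 9 days. The labels give an age of 8 to 10 weeks for every library, including those that hold healthy animals.

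Each of 3 libraries of viable CD45- cells held 3 arthritic animals and 1 healthy wild-type animal that had not been treated. The arthritic animals of those libraries were left untreated, given an antibody that inhibits human TNF, or treated with anti-IL-17A (against the mouse cytokine), with 1 condition per library. The last library held cells of 5 arthritic animals, without inhibitor, sorted as CD45- FAP+ Pdpn+, FAP and podoplanin being surface proteins of activated fibroblasts. The transgene drives arthritis through constant TNF, and every arthritic group shares it along with Il23mc. Treatment and library cannot be told apart except through the healthy animal in each unsorted library.

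Glycolysis breaks glucose down to pyruvate in the cytosol, and lactate dehydrogenase and the lactate exporter MCT4 carry the carbon out of the cell when mitochondria do not take it up. HIF-1 and HIF-2, whose alpha subunits are encoded by Hif1a and Epas1, are degraded in the presence of oxygen after the prolyl hydroxylases encoded by Egln1 and Egln3 modify them. Without enough oxygen they bind short DNA motifs and raise glycolytic enzymes, angiogenic factors such as Vegfa, and proteins that limit mitochondrial respiration. Both pathways have been studied in inflamed synovium, where fibroblasts use much glucose.

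The animals' fibroblasts summed to between 4508588 and 36786390 UMIs (unique molecules counted) over 413 to 2037 cells, with healthy animals the shallowest. Levels are CPM of those UMIs (counts scaled to a common total) after trimmed-mean (TMM) scaling, and the authors' 5 fibroblast classes (lining, Mmp3+, Il6+, Cd200+ and Pi16+) were taken as deposited. The 10 fibroblast markers, among them Col1a1, Col3a1 and Pdgfra, summed to between 30081 and 52681 CPM in every animal. Healthy cells were marked less clearly than the others: the annotated hashtag had the highest raw count in 34.85%, 22.74% and 9.93% of fibroblasts of healthy animals 1, 2 and 3, against at least 96.23% in every arthritic animal. In healthy animals 2 and 3, 23.11% and 17.68% of fibroblasts held a UMI of a Y-linked gene while 65.43% and 67.31% held Xist without one, so the cells of these 2 animals are mixed by this measure. The comparison with healthy animals over all fibroblasts is therefore also given with healthy animal 1 alone, where 2.94% held a Y-linked UMI. Untreated animals 1 and 3 of the same library had 4.09% and 3.48%. This measure therefore cannot show whether cells of theirs are among those of healthy animal 1. The pairs of libraries shared between 7 and 12 annotated barcodes. Nothing in the labels says that the animals of a group came from separate litters or days, so p-values measure the spread between these animals.

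Within the fibroblasts, most members were higher in the Mmp3+ class than in the Il6+ class, the 2 largest classes in arthritis. Of the 17 glycolytic members, 10 were higher in Mmp3+ than in Il6+ fibroblasts in all 17 animals, 1 was lower in all 17, and 6 were mixed. Among the 17 HIF members these counts were 9, 1 and 7. The same count over all genes was not made, so the counts cannot be read as particular to these members. The classes were made from the same cells, so these levels are a description and carry no test. The largest difference among glycolytic members was that of Slc16a3, which encodes the lactate exporter MCT4, with a mean log2 difference of 3.09. Ankrd37, an ankyrin repeat protein and HIF target, had 2.44, Ndufa4l2, which restrains complex I, 2.21, and the oxygen sensor Egln3 2.01. Hk2, the inducible hexokinase that traps glucose in the cell, and Adm, the vasodilator adrenomedullin, ran the other way with -1.47 and -1.42. Both were lower in Mmp3+ than in Il6+ fibroblasts in all 17 animals.

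**Figure D1:**
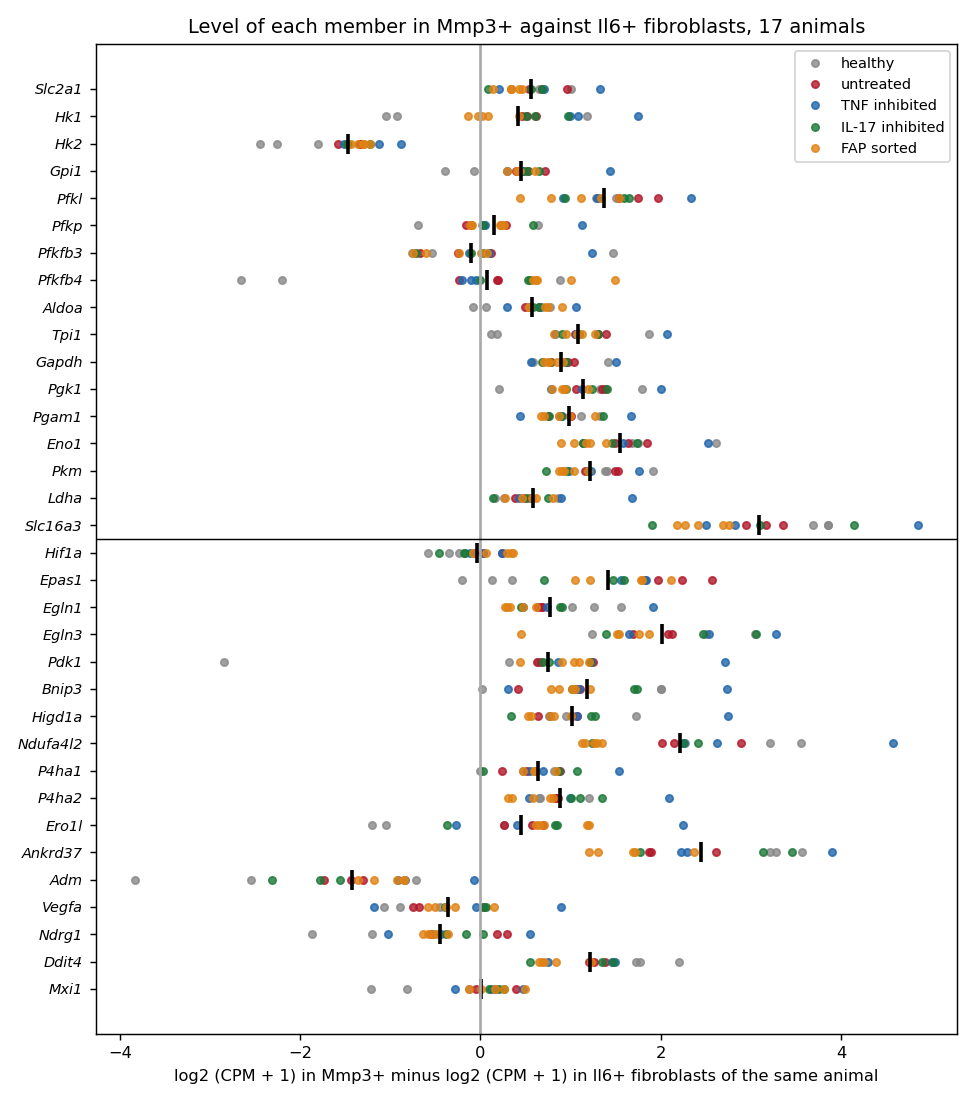
Level of each member in Mmp3+ minus its level in Il6+ fibroblasts of the same animal (x axis, log2 of CPM plus 1), with 1 point per animal coloured by group and a black bar at the mean of 17 animals; glycolytic members stand above the line and HIF members below it. Slc16a3, Ankrd37, Ndufa4l2 and Egln3 lie farthest right, and Hk2 and Adm lie left of 0 in every animal.

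In the 14 animals with at least 10 cells in each of the 5 classes, Higd1a, a mitochondrial protein that protects respiration in low oxygen, was highest in the lining class, whose cells face the joint space, in 14. Pgk1, Pgam1, P4ha2 and Ddit4 were highest in the Mmp3+ class in 14, where Pgk1 and Pgam1 are glycolytic enzymes, P4ha2 hydroxylates collagen and Ddit4 restrains mTORC1. Hk2 and Adm were highest in the Il6+ class in 13. These 14 animals include none of the TNF-inhibited group, which had too few Pi16+ cells (6, 1 and 2). Summed over the 17 glycolytic members, untreated Mmp3+ fibroblasts had 3905 ± 284 CPM, lining 3500 ± 325, Il6+ 2932 ± 76 (written as mean ± SD, n = 3, like all group values that follow), Cd200+ 2595 ± 185 and Pi16+ 2201 ± 566. In healthy animals Mmp3+ fibroblasts (3436 ± 922 CPM) were also the highest on average and Pi16+ fibroblasts (2144 ± 65.5) the lowest, while Il6+ (2719 ± 125) and lining fibroblasts (2671 ± 249) overlapped. The chondrocyte and osteoblast classes of the untreated animals had 2948 ± 302 and 3353 ± 253 CPM, within the range of the fibroblast classes.

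The comparison of untreated arthritic with healthy animals asks what arthritis changes in these fibroblasts. With all fibroblasts summed, 18 of the 34 members were higher in arthritis and 1 was lower (edgeR quasi-likelihood test, Benjamini-Hochberg adjusted p under 0.05), where 14.4% of 14348 genes were called higher and 14.3% lower. Glycolytic members gave 11 higher and 1 lower with a median log2 fold change of 0.63, and HIF members 7 and 0 with a median of 0.47, against a median of 0.01 over all genes. The summed glycolytic level was 2273 ± 108 CPM in healthy and 3229 ± 196 CPM in untreated animals, and the summed HIF level was 1207 ± 135 and 1768 ± 80.3 CPM. Neither pair of groups overlapped. In bulk sums like these, a change in the kinds of cell present and a change within cells cannot be told apart.

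**Figure D2:**
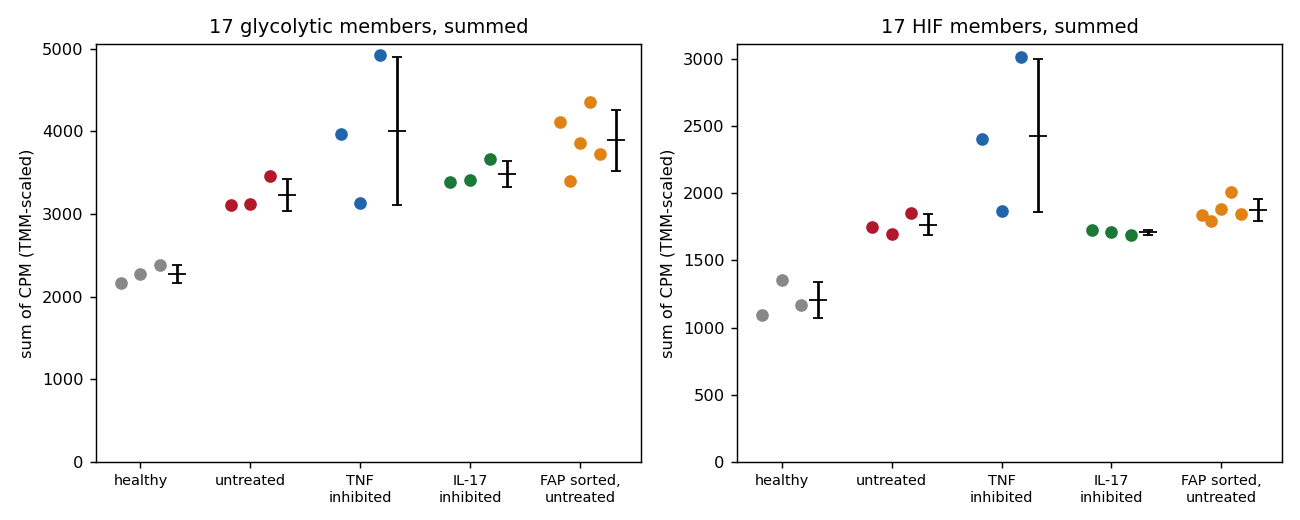
Summed level of the 17 glycolytic (left) and 17 HIF (right) members in the fibroblasts of each animal, in TMM-scaled CPM on axes from 0; points are animals, and the bar to the right of each group is the mean with its SD. Healthy animals are lowest in both panels, and the 3 TNF-inhibited animals spread widely.

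Epas1, which encodes HIF-2 alpha (ENSMUSG00000024140, chr17:86753700-86833410, plus strand, GRCm38), had the largest increase of any member. It stood at 21.7, 21.1 and 15.3 CPM in healthy animals 1 to 3 and at 136, 140 and 125 CPM in untreated animals 1 to 3. Every untreated animal was above every healthy one, and the log2 fold change was 2.74 ± 0.23 (SE; edgeR, adjusted p = 3.01e-06). Hif1a, its HIF-1 counterpart, rose less, from 172, 136 and 171 CPM to 366, 284 and 344 CPM, with no overlap and a log2 fold change of 1.02 ± 0.14 (edgeR, adjusted p = 0.000162). Of the oxygen sensors that mark both proteins for degradation, neither Egln1 (-0.20 ± 0.14) nor Egln3 (0.01 ± 0.46) passed.

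At the entry of glycolysis, Slc2a1, the glucose transporter GLUT1, stood at 30.3, 32.6 and 25.6 CPM in healthy animals and at 71.5, 71.3 and 73.8 CPM in untreated animals. The untreated animals lay close together and above every healthy one, with a log2 fold change of 1.25 ± 0.16 (edgeR, adjusted p = 9.96e-05). Pfkl, the liver form of phosphofructokinase, rose by 1.62 and Pfkfb3, which makes its activator, by 0.80, while Pfkp, the platelet form, was the 1 member that fell, with -0.44. With 1 of the 6 animals left out at a time, the Pfkp call held in 0 of 6 fits and the Pfkfb3 call in 2. Hk2, at 604 CPM in healthy and 574 CPM in untreated animals on average, did not pass. In the lower pathway, Tpi1 rose by 0.58, Gapdh by 0.64, Pgk1 by 0.77, Pgam1 by 0.63, Eno1 by 0.79 and Pkm, pyruvate kinase, by 1.21. The Eno1 call held in 1 of the 6 fits that leave out an animal (adjusted p up to 0.14) and the Pgk1 call in 4. Ldha rose by 0.49 (4 of 6 fits), from 256, 336 and 314 CPM to 434, 398 and 470 CPM. Slc16a3 rose by 2.15 from a low level, from 4.8, 7.2 and 5.9 CPM to 25.4, 18.1 and 36.9 CPM. A near copy of Eno1 is counted apart as Eno1b (2337 UMIs over all animals against 42341 for Eno1), and reads could be split between the pair.

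Among HIF targets, Ddit4 rose by 2.29, from between 17 and 19.1 CPM to between 75.8 and 105 CPM. Ndufa4l2 rose by 1.18, Pdk1, which limits the entry of pyruvate into the citrate cycle, by 0.92 and Bnip3, a mitophagy receptor, by 0.83 (4 of 6 fits). Vegfa rose by 0.56, from 57.6, 64.4 and 60.1 CPM to 93.7, 88.1 and 93.5 CPM. The other 10 HIF members did not pass, with log2 fold changes between -0.71 (Higd1a) and 0.61 (Ankrd37). They included Adm, Ndrg1, a stress-responsive differentiation gene, and the collagen hydroxylase P4ha1.

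With healthy animal 1 as the only healthy animal, 10 members were higher and 0 lower, with a median log2 fold change of 0.72. Epas1 then had 2.60, Hif1a 0.92, Slc2a1 1.23 and Ddit4 2.20, with adjusted p at most 0.0145 (edgeR). With a library term this comparison rests on the same healthy animal, because the other healthy animals only set the levels of their own libraries. It is therefore the same contrast and not a second check, with Epas1 at 2.59, Slc2a1 at 1.22 and Ddit4 at 2.20. The library term left 10 higher and 0 lower: Slc2a1, Pfkl, Gapdh, Pgam1, Pkm, Ldha, Hif1a, Epas1, Ndufa4l2 and Ddit4. Of all 14348 genes, 1102 were higher and 1215 lower with that term. The other 9 calls were lost with it: Pfkp (adjusted p = 0.109), Pfkfb3 (0.289), Tpi1 (0.0513), Pgk1 (0.0734), Eno1 (0.116), Slc16a3 (0.0508), Pdk1 (0.0766), Bnip3 (0.165) and Vegfa (0.0914). With healthy animal 1 alone, which is the same contrast, these genes did not pass. Scaling by library size alone shifted the median of all genes to -0.20 and gave 14 members higher and 4 lower. Of all 14348 genes it called 1245 higher and 4030 lower.

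**Figure D3:**
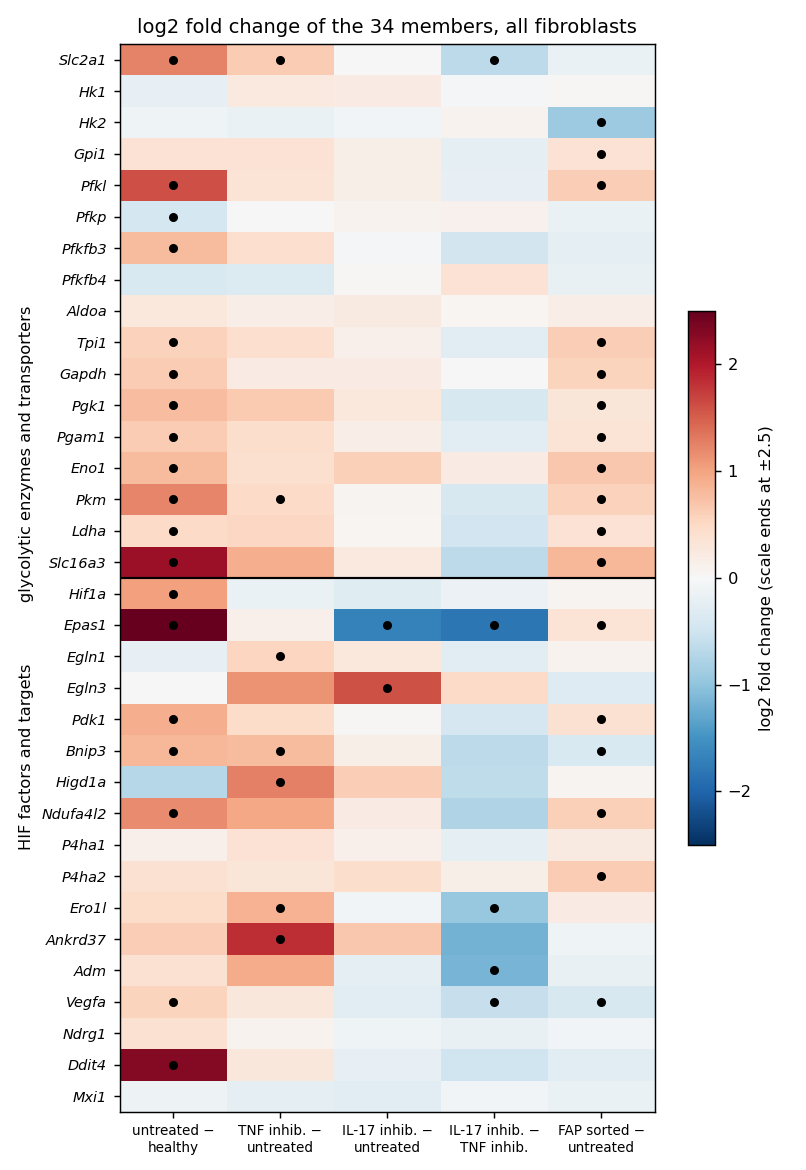
Log2 fold change of each of the 34 members (rows) in the 5 comparisons (columns), all fibroblasts summed per animal, in red where the first-named group is higher and blue where it is lower; black dots mark an edgeR adjusted p under 0.05. The first column is red for 27 of 34 members, and the Epas1 row turns from dark red to dark blue between arthritis and IL-17 inhibition.

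The classes present differed between the groups. Pi16+ fibroblasts gave 43.977% to 46.167% of the fibroblast UMIs of healthy animals and 0.654% to 1.374% of those of untreated animals, and Mmp3+ fibroblasts 1.638% to 4.527% and 49.586% to 56.743%. Tested within a class, few members passed: 1 in Il6+ (6.91% of all genes were called in either direction), 3 in Mmp3+ (6.84%), 3 in Cd200+ (4.27%), 8 in lining (13.2%) and 0 of 27 tested in Pi16+ fibroblasts (3.43%). The Pi16+ result compares few arthritic cells, with 11, 19 and 24 in the untreated animals, and at an unadjusted p under 0.05 edgeR gave 919 of 6187 genes there. The median log2 fold change of the members was 0.03 in Il6+, 0.05 in Mmp3+, 0.23 in Cd200+, 0.42 in lining and 0.13 in Pi16+ fibroblasts, against 0.57 with all fibroblasts summed. Over all genes the median was 0.14 in Mmp3+ fibroblasts and between -0.01 and 0.02 in the other classes.

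As a further description, chosen after the class values were seen, the healthy animals' class levels were combined at the mean class UMI shares of the untreated animals, in CPM without TMM scaling. The summed glycolytic level of healthy animals was then 3648 ± 594 CPM, against 2660 ± 88.6 CPM as measured and 3194 ± 210 CPM in untreated animals. The summed HIF level was 1976 ± 290 CPM, against 1412 ± 139 and 1749 ± 84.4 CPM. The median log2 ratio of untreated over healthy was 0.32 over the members as measured and -0.25 after re-weighting. Without TMM scaling the edgeR median over all genes was -0.20 in this comparison. No median over all genes is given for the re-weighted levels, so -0.25 has no such reference. Epas1 went from 2.54 to 2.12, Ddit4 from 2.08 to 0.65 and Pdk1 from 0.70 to 0.59, and these were the 3 members still over 0.5, of 13 before. Hif1a went from 0.81 to 0.46, Slc2a1 from 1.05 to -0.01 and Pkm from 1.01 to -0.06. These re-weighted values lean on healthy Mmp3+ fibroblasts, of which the 3 animals had 16, 17 and 24.

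**Figure D4:**
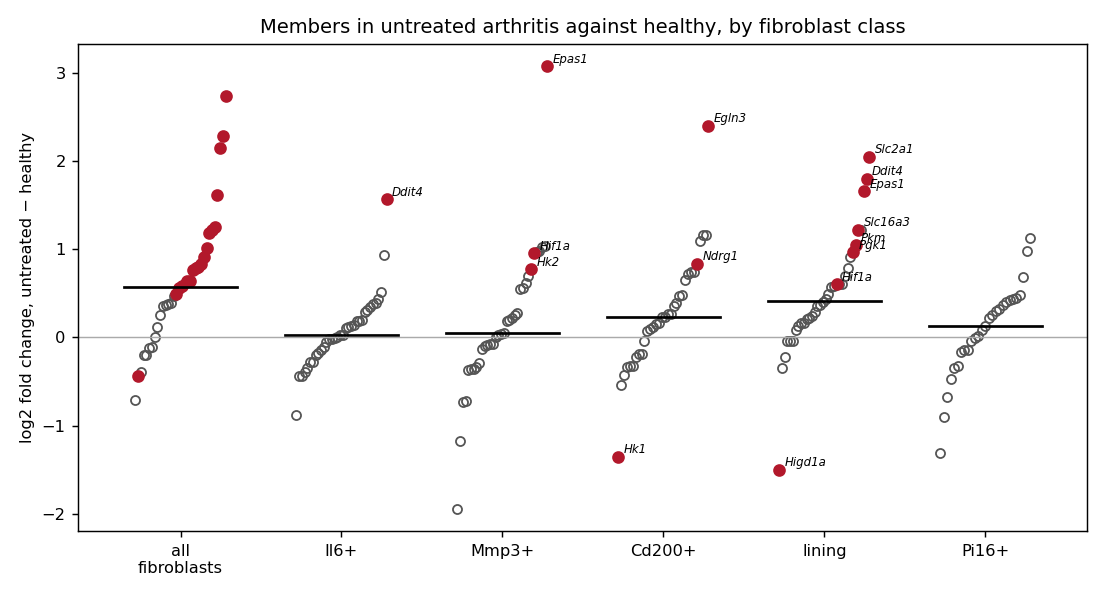
Log2 fold change of the members, untreated minus healthy, with all fibroblasts summed and within each class (x axis); each circle is a member, filled red where the edgeR adjusted p is under 0.05, and the black line is the median. The median is 0.57 in the sum and between 0.03 and 0.42 within the classes, and Epas1 in Mmp3+ fibroblasts is the highest point.

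Within Mmp3+ fibroblasts Epas1 went from 19.4, 24.9 and 27.2 CPM in healthy to 236, 222 and 188 CPM in untreated animals, a log2 fold change of 3.07 ± 0.31. The healthy values come from 16, 17 and 24 cells, with a median of 7052 UMIs per cell. Few Epas1 molecules therefore lie behind them and behind the class difference given below. In lining fibroblasts Epas1 went from 60.7, 41.4 and 62.3 to 169, 205 and 152 CPM (1.66 ± 0.25). In Il6+ fibroblasts the same gene stood at 22.5, 22.8 and 21.0 CPM in healthy and at 39.0, 46.3 and 47.1 CPM in untreated animals, without passing. The effect on Epas1 was larger in Mmp3+ than in Il6+ fibroblasts by 2.16 ± 0.42 (edgeR class by group interaction, adjusted p = 0.00735). Hk2 also differed, by 0.80 ± 0.20 (adjusted p = 0.0387): it rose by 0.77 in Mmp3+ fibroblasts, from 284, 193 and 202 CPM to 323, 444 and 417 CPM, while in the Il6+ class it stood at 990, 925 and 1104 CPM in healthy and 965, 1122 and 1058 CPM in untreated animals. No other member passed this interaction, which called 409 of 12497 genes.

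Hif1a rose within Mmp3+ fibroblasts by 0.95 and within lining fibroblasts by 0.60. The lining class also had more Slc2a1, from 23.4, 20.1 and 13.8 CPM to 73.2, 94.1 and 86.9 CPM, with a log2 fold change of 2.04 ± 0.24. Pkm (1.04), Pgk1 (0.97), Slc16a3 (1.22) and Ddit4 (1.79) rose there too, and Higd1a fell by 1.5. Ddit4 was the 1 member that rose in Il6+ fibroblasts, with 1.57 ± 0.25. Cd200+ fibroblasts had more Egln3 (2.39) and Ndrg1 (0.83) and less Hk1 (-1.35), the constitutive hexokinase.

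The TNF inhibition comparison asks what blocking human TNF changes in animals whose arthritis is driven by it. Against untreated animals 7 members were higher and 0 lower with TNF inhibition, where 2.53% of genes were called higher and 3.02% lower. These were Slc2a1 and Pkm among 17 glycolytic members (median 0.40) and Egln1, Bnip3, Higd1a, Ero1l and Ankrd37 among 17 HIF members (median 0.46), against a median over all genes of 0.00. Of all 34, 29 had a positive log2 fold change. The HIF genes themselves did not pass: Hif1a had -0.16 ± 0.14 and Epas1 0.12 ± 0.20. Vegfa (0.29), Ldha (0.52) and Pgk1 (0.66) did not pass either.

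The promoters of 4 of these 7 genes are shown because HIF binds the core motif ACGTG or GCGTG. Those of Pkm, Egln1 and Higd1a, not printed, had at most 2, 2 and 3 matches in a whole window of 300 bases. Whether HIF acts on any of these genes here was not tested. Each is the 250 bases before the RefSeq start (GRCm38.p6), read in the direction of the gene, with the core motif in capitals on either strand (CACGT and CACGC are the same letters read from the other strand), and overlapping matches run together.
Slc2a1 (chr4:119108495-119108744, strand +): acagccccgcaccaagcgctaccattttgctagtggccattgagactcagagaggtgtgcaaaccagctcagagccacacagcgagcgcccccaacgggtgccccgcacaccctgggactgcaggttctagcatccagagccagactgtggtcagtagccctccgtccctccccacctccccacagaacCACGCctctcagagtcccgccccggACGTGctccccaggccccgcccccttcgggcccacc
Bnip3 (chr7:138909507-138909756, strand -): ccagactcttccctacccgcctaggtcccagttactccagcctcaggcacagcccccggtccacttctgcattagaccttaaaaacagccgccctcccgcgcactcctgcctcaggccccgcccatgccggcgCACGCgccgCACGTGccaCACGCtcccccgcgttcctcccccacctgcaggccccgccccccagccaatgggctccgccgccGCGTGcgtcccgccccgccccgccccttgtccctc
Ero1l (chr14:45318573-45318822, strand -): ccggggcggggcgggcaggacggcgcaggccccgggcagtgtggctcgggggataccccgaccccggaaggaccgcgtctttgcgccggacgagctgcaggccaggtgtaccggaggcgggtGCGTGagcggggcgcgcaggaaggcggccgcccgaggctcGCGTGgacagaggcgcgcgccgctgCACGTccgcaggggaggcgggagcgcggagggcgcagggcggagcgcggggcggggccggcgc
Ankrd37 (chr8:45999851-46000100, strand -): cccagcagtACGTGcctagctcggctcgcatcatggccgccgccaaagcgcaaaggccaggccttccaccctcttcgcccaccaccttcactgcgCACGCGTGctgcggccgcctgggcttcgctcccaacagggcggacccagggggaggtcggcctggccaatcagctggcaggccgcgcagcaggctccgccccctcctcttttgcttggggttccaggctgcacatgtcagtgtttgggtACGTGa
Slc2a1 has 2 matches, Bnip3 5, Ero1l (RefSeq symbol Ero1a) 3 and Ankrd37 4. Promoters of 31 of the 34 members were found by symbol or synonym, with none for Epas1, Ndufa4l2 and Ndrg1. In the whole windows of 300 bases, which run to 50 bases after the start, 29 of the 31 members had a match in at least 1 window, the exceptions being Gpi1 and Tpi1. The motif holds a CpG and is common: it lay in 43.8% of all 32851 windows and in 68.4% of the 14281 windows with at least 10 CpG, where 87.2% of the 39 such member windows had one. A match is a run of letters and not a measured binding site.

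The values behind these calls spread widely between the TNF-inhibited animals. Slc2a1 stood at 120, 83.0 and 137 CPM in TNF-inhibited animals 1 to 3, all above the 71.5, 71.3 and 73.8 CPM of untreated animals, with a log2 fold change of 0.64 ± 0.15 (edgeR, adjusted p = 0.0333). Bnip3 stood at 95.8, 87.1 and 179 CPM, against 58.2, 68.0 and 80.9 CPM (0.79 ± 0.22, adjusted p = 0.0498). Higd1a stood at 264, 254 and 606 CPM, against 137, 164 and 167 CPM (1.26 ± 0.31). Animal 3 was the highest of each trio. Ero1l, an oxidase of the endoplasmic reticulum, stood at 88.0, 60.9 and 136 CPM (0.88 ± 0.21), and Ankrd37 at 14.4, 11.5 and 36.3 CPM against 3.9, 5.2 and 7.1 CPM (1.85 ± 0.45). Pkm (0.47) and Egln1 (0.54) moved least among the 7.

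**Figure D5:**
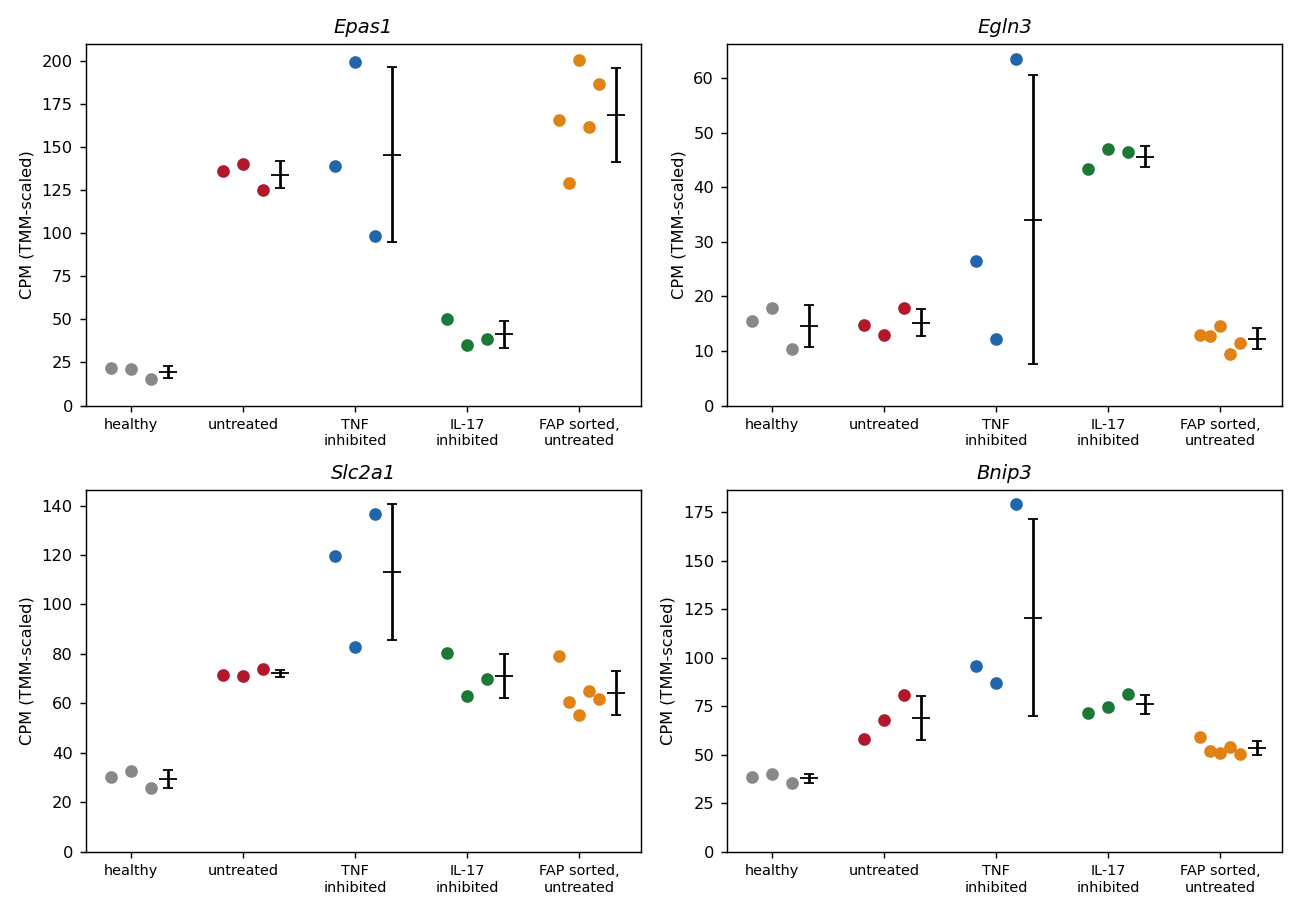
Level of Epas1, Egln3, Slc2a1 and Bnip3 in the fibroblasts of each animal (y axis, TMM-scaled CPM from 0) in the 5 groups; points are animals in replicate order, and the bar beside each group is the mean with its SD. Epas1 is low in healthy and IL-17-inhibited animals, and Egln3 is high and even in IL-17-inhibited animals. TNF-inhibited animal 3 stands highest for Egln3, Slc2a1 and Bnip3.

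TNF-inhibited animal 3 was the highest of the 12 unsorted animals for 28 of 34 members, and its median level over the members was 1.61 times the untreated mean. How often it was the highest over all genes was not counted, so this cannot be read as particular to the members. Animal 1 had a median of 1.37 times and animal 2 of 1.03 times. Of the Mmp3+ and Il6+ classes, only Mmp3+ fibroblasts had an excess of Higd1a and Bnip3 in animal 3. Levels in its lining and Cd200+ fibroblasts are not given here, so an excess there is not excluded. That class gave 65.264%, 64.123% and 49.393% of the fibroblast UMIs of animals 1 to 3. Higd1a stood there at 298, 227 and 909 CPM in animals 1 to 3, and Bnip3 at 119, 87.8 and 313 CPM. In Il6+ fibroblasts animal 3 was within the range of the other two for Higd1a (142, 133 and 135 CPM) and below them for Bnip3 (55.3, 70.8 and 46.0 CPM). Epas1 did not follow, with 139, 199 and 98.6 CPM over all fibroblasts, lowest in animal 3.

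None of the 7 calls held when animal 3 was left out (0 members higher), or when any 1 untreated animal was left out, and without animal 2 there were 16. Over all genes 379 of 15024 were higher without animal 3 and 107 of 14326 without animal 2. Leaving out 1 untreated animal gave 45 to 83 genes higher. With a library term, which uses the healthy animal of each library, 0 members and 0 genes of any kind passed (799 genes at an unadjusted p under 0.05), and the members' median was 0.20. The healthy animal of the TNF library was the highest of the 3 healthy animals for 14 of 34 members (5 of 17 glycolytic and 9 of 17 HIF members). Any 1 of 3 like animals would be the highest for about 1 in 3 genes, and the share over all genes was not counted. Higd1a stood at 348 CPM in this healthy animal, against 173 and 227 CPM in the others. DESeq2 called 13 members higher and 0 lower, where 661 of 14348 genes were higher and 744 lower. Animal 3 also differed from its group in sex-linked RNA: 4.87% of its fibroblasts held a Y-linked UMI, against 81.31% and 86.53% in animals 1 and 2, and 4.09%, 57.83% and 3.48% in untreated animals 1 to 3. With a sex term, added after seeing the data, 15 members were higher and 0 lower. That fit called 381 of 14348 genes higher and 402 lower.

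Within classes, TNF inhibition changed 0 members in Il6+ fibroblasts (0.254% of genes called; 1675 of 11439 genes at an unadjusted p under 0.05). Mmp3+ fibroblasts had more Adm (2.33% of genes), at 147, 110 and 275 CPM against 39.9, 69.0 and 59.6 CPM, a log2 fold change of 1.63 ± 0.39. Lining fibroblasts had more Slc2a1 (0.80) and Pfkfb3 (1.48) (1.33% of genes). Slc2a1 was at 175, 127 and 139 CPM there against 73.2, 94.1 and 86.9 CPM, with no overlap and no excess of animal 3. Cd200+ fibroblasts had more Vegfa (0.84) and less Ndufa4l2 (-1.12) (1.07% of genes). Pi16+ fibroblasts were too few to test, with 6, 1 and 2 cells.

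IL-17 inhibition changed 2 members against untreated animals, 1 in each direction, where 3.8% of genes were called higher and 4.65% lower. None of the 17 glycolytic members passed (median 0.14, range -0.07 to 0.61), and the HIF members had a median of 0.03 against 0.01 over all genes. Epas1 fell to 50.2, 35 and 38.9 CPM from 136, 140 and 125 CPM, which left it between the healthy and the untreated animals without overlap with either. Its log2 fold change was -1.69 ± 0.21 (edgeR, adjusted p = 0.0017). Egln3 (ENSMUSG00000035105, chr12:54178981-54203860, minus strand, GRCm38) stood at 43.4, 47.0 and 46.5 CPM, against 14.7, 13.0 and 17.8 CPM in untreated animals. That was an increase of 1.60 ± 0.41 (edgeR, adjusted p = 0.0308), and the 3 animals lay close together. Under TNF inhibition Egln3 ran from 12.2 to 63.5 CPM, with animal 3 the highest of the 12 unsorted animals. With all fibroblasts summed, Egln3 was not among the members called between the inhibitors. Hif1a had -0.31 ± 0.14, Vegfa -0.29, Slc2a1 -0.01, Ldha 0.04 and Pgk1 0.25, none past the threshold.

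The Epas1 call held without any 1 of the 6 animals (adjusted p at most 0.00995), whereas the Egln3 call held in none of these (adjusted p up to 0.122). With the library term Epas1 had -1.19 ± 0.52 and Egln3 2.17 ± 1.09 and 0 members passed (1107 genes at an unadjusted p under 0.05).

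Mmp3+ fibroblasts gave 43.366% to 50.415% of the fibroblast UMIs under IL-17 inhibition. By class, Epas1 fell in Mmp3+ fibroblasts to 71.3, 52.9 and 58.4 CPM from 236, 222 and 188 CPM (-1.81 ± 0.16), where 6.41% of genes were called. It fell in lining fibroblasts to 45.1, 40.2 and 51.2 CPM from 169, 205 and 152 CPM (-1.96 ± 0.23), where 0.495% were called. In Il6+ fibroblasts it had -0.78 ± 0.28 and did not pass, and the difference between the Mmp3+ and Il6+ effects was -0.98 ± 0.20 (edgeR interaction, adjusted p = 0.068). Egln3 rose in Il6+ (1.46 ± 0.34) and Cd200+ fibroblasts (1.66 ± 0.27) and had 1.66 ± 0.48 in the Mmp3+ class with an adjusted p of 0.053. Il6+ fibroblasts also had more Eno1 (0.88) and Pkm (0.48), so 3 of 34 members rose, where 2.24% of genes were called. Cd200+ fibroblasts had 1 member (1.48% of genes), and 0 of 27 tested members passed in Pi16+ fibroblasts (0.307% of genes, with 758 of 6187 at an unadjusted p under 0.05).

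Set against each other, the IL-17-inhibited animals had 5 members lower and 0 higher than the TNF-inhibited animals, where 3.05% of genes were called lower and 4.54% higher. Epas1 had -1.81 ± 0.21 (edgeR, adjusted p = 0.000469), Adm -1.15, Ero1l -0.95, Slc2a1 -0.65 and Vegfa -0.58. The Epas1 groups did not overlap, at 50.2 CPM or less against 98.6 CPM or more. Hif1a (-0.15), Ldha (-0.48) and Pgk1 (-0.41) did not pass. The library term left 0 calls (1028 genes at an unadjusted p under 0.05). Without TNF-inhibited animal 1 or animal 3 there were 3 members lower, and without animal 2 there were 12. Over all genes 436, 503 and 213 were lower without TNF-inhibited animal 1, 3 and 2. Without IL-17-inhibited animals 1, 2 and 3 in turn there were 4, 1 and 2 members lower, among 305, 174 and 295 genes lower. The Epas1 call held in all 6 of these fits, Ero1l in 5, and Slc2a1, Adm and Vegfa in 2 each.

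Lining fibroblasts had the most calls of the 4 classes tested: 10 of 34 members were lower with IL-17 inhibition and 0 higher, against 6.65% of genes called. Adm had -2.18 and Ankrd37 -2.23, Epas1 -2.26, Pfkfb3 -1.70, Ndufa4l2 -1.45, Slc2a1 -1.15, Ero1l -0.93, Bnip3 -0.79, Ldha -0.61 and Pkm -0.60. Adm stood there at 20.4, 40.5 and 41.7 CPM, against 137, 140 and 179 CPM with TNF inhibition, with no overlap. Mmp3+ fibroblasts had 2 members lower, Epas1 (-1.64) and Adm (-1.81), where 7.18% of genes were called. Cd200+ fibroblasts had 3 higher, Eno1, Egln3 and Ndufa4l2 (1.74% of genes), and Il6+ fibroblasts 0 (0.787% of genes, with 1332 of 11439 at an unadjusted p under 0.05). No member's IL-17 minus TNF difference passed the Mmp3+ against Il6+ interaction.

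FAP-sorted fibroblasts of untreated arthritic animals were set against the unsorted fibroblasts of untreated animals. The sort and the library cannot be told apart here. Of the members, 14 were higher and 3 lower, where 21.3% of 13418 genes were called higher and 21.5% lower. Glycolytic members gave 10 higher and 1 lower (median 0.34) and HIF members 4 and 2 (median 0.07), against -0.01 over all genes. Gapdh stood at 1010, 797, 988, 1159 and 883 CPM after the sort, against 637, 623 and 697 CPM (0.57 ± 0.11; edgeR, adjusted p = 0.00216). Eno1 (0.67), Pfkl (0.61), Tpi1 (0.62), Pkm (0.57), Gpi1 (0.36), Ldha (0.36), Pgam1 (0.34), Pgk1 (0.30) and Slc16a3 (0.84) rose with it. Hk2 went the other way, with 312, 384, 249, 274 and 304 CPM against 537, 626 and 560 CPM, so no sorted animal reached an unsorted one (-0.91 ± 0.12, adjusted p = 0.000431).

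Of the HIF members, P4ha2 (0.64), Ndufa4l2 (0.59), Pdk1 (0.39) and Epas1 (0.33) were higher, and Bnip3 (-0.38) and Vegfa (-0.40) lower. The Epas1 call held in 2 of the 8 fits that leave out 1 animal, and 10 of the 17 calls held in all 8. Hif1a (0.08) and Slc2a1 (-0.17) did not pass. Mmp3+ fibroblasts held 64.813% to 84.991% of the fibroblast UMIs after the sort, and Il6+ fibroblasts 6.375% to 18.484%. Within Il6+ fibroblasts 12 of 32 tested members were higher and 2 lower (25.6% of genes), and within Mmp3+ fibroblasts 8 and 6 of 34 (37.7% of genes). In the smaller classes 2 of 32 were higher and 1 lower in Cd200+ (2.85% of genes), 2 and 2 of 30 in lining (8.44%) and 7 and 2 of 29 in Pi16+ fibroblasts (6.86%). Hk2 was lower in Il6+ and Mmp3+ fibroblasts (-0.63 and -0.62) and Bnip3 too (-0.53 and -0.47). Mitochondrially encoded genes summed to 36208 ± 1462 CPM after the sort (n = 5) and 24837 ± 576 CPM in unsorted untreated animals, muscle markers to 3.77 ± 0.53 and 220 ± 31.7 CPM, and neutrophil markers to 124 ± 15.1 and 49.2 ± 5.69 CPM. The authors' stress score had a median over fibroblasts of 0.112 to 0.366 in the sorted animals and 0.639 to 0.802 in unsorted untreated animals. The part of these differences in the member results was not tested.

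Other genes of the same pathways were counted from lists that hold no member. Of 23 tested glycolytic and glucose genes outside the members, 5 were higher and 3 lower in untreated than in healthy animals, led by Slc2a6 (3.14) and Gys1 (1.83), and by Slc2a4, the insulin-responsive glucose transporter (-1.24), and Ugp2 (-1.18). The 33 tested oxygen-sensing and HIF target genes gave 13 higher and 4 lower, led by Nos2 (2.55) and Car9, a carbonic anhydrase and HIF target (2.38), and by Stc1 (-3.44) and Wsb1 (-0.89). Over all genes 14.4% were called higher and 14.3% lower in this comparison. Of 7 pentose phosphate genes 2 were higher and 0 lower, and of 20 genes of pyruvate entry and the citrate cycle 4 were higher and 5 lower.

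With TNF inhibition 3 of the 33 further HIF genes rose and 0 fell, led by Car9 (2.86) and Fam162a (0.83), and 2 of 16 integrated stress response genes rose, Vldlr (0.79) and Ddit3 (0.77). With IL-17 inhibition 3 of 33 rose, led by Flt1 (1.98) and Pdgfb (1.48), and 2 fell, Lox (-0.76) and Arnt (-0.34), the latter being the partner of both HIF alpha subunits. Of 23 nuclear respiratory genes 5 rose and 0 fell with IL-17 inhibition, led by Cox8a (0.38) and Cox7a2 (0.35), and 2 rose and 0 fell with TNF inhibition. Of 13 mitochondrially encoded genes 0 rose and 10 fell with IL-17 inhibition, led by mt-Nd4 (-0.64) and mt-Nd3 (-0.63), and 0 rose and 4 fell with TNF inhibition. In untreated against healthy animals 8 of those 13 had risen and 0 had fallen.

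Markers of other cell types in the fibroblast sums moved with several of these comparisons. The 8 muscle markers summed to 188 to 251 CPM in untreated animals. They were at 79.8 to 107 CPM under TNF inhibition, 54.1 to 88.6 CPM under IL-17 inhibition and 77.5 to 260 CPM in healthy animals. The 7 keratinocyte markers summed to 121 to 322 CPM in healthy and 30.5 to 34 CPM in untreated animals. Endothelial and erythroid markers stayed at or below 12.1 and 2.6 CPM in every animal, and leukocyte markers summed to 4.78 to 5.84 CPM in healthy, 16.3 to 26 CPM in untreated and at most 32.1 CPM in the other unsorted animals. Neutrophil markers summed to 15.3 to 16.9 CPM in healthy and 44.9 to 55.7 CPM in untreated animals. Bone, Schwann cell and mural markers ran the other way, at 476 ± 101, 49.7 ± 3.72 and 116 ± 33.5 CPM in healthy and 110 ± 62.6, 18.7 ± 1.96 and 63.6 ± 1.28 CPM in untreated animals. With IL-17 inhibition 4 of 8 bone markers rose and 0 fell, and their sum was 163 ± 42.9 CPM. Their part in the member results was not tested.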

How the data were processed

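Per the file headers, the deposited UMI counts per gene and barcode came from Cell Ranger 6.0.0 (unsorted libraries) and 5.0.0 (FAP sort), while the submitters' processing notes name 6.0.6 and build mm10. Cell classes, hashtags, the mitochondrial fraction, the stress score and total counts per cell came from the authors' deposited cell table. Its totals differed from the matrix by at most 41 UMIs in 24227 joined cells. The authors' steps for doublets are not given in the sources used here, and no doublet caller was run.

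Counts of annotated fibroblasts were summed per animal, or per animal and class with at least 10 cells, so the animal is the replicate. Sums were tested with edgeR 4.0.16 (TMM scaling, filterByExpr, quasi-likelihood test, Benjamini-Hochberg adjusted p under 0.05 over all tested genes). The 12 unsorted animals shared 1 fit, and the FAP sort was fitted with the untreated animals (8 animals). The code was tested on simulated counts. Alternatives were DESeq2 1.42.0, other scalings and filters, a library term, a replicate block, single classes and left-out animals. A sex term, healthy cells without Y-linked UMIs and the class interaction were added after seeing the data. Members, gene lists and tests were chosen with earlier results of these data known. Members past the threshold are named, as are Hif1a, Epas1, Slc2a1, Ldha, Pgk1 and Vegfa in every comparison, with at most 2 genes per direction from other pathway lists. Coordinates come from a GRCm38 annotation matched by gene identifier, and promoters from RefSeq.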

Additional observations from a re-analysis of the deposited data

Results flagged for a closer look

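Ndrg1 stood at 471 CPM in FAP-sorted animal 2, against 325 to 352 CPM in the other 4 sorted animals. It was the 1 member with a sample apart among 34 tested in that group. Chance flags about 1 in 20 members tested, so 1 of 34 is not above that rate. The effect of arthritis differed between Mmp3+ and Il6+ fibroblasts for Epas1, by 2.16 on the log2 scale (edgeR interaction, adjusted p = 0.00735), and for Hk2, by 0.80 (adjusted p = 0.0387). Both rest on 16, 17 and 24 healthy Mmp3+ cells.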

How the results depend on the processing

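Depth limited the healthy Mmp3+ and arthritic Pi16+ sums most, and each library holds 1 condition. Without 1 animal at a time, members higher in untreated than in healthy animals ranged from 13 to 17 and members lower stayed at 0. Members higher with TNF inhibition ranged from 0 to 16. With IL-17 inhibition 0 were higher and 1 was lower in every such fit. Between the inhibitors 0 to 1 were higher and 1 to 12 lower, and after the FAP sort 8 to 16 were higher and 2 to 5 lower. Epas1 then ranged from -0.17 to 0.33 under TNF inhibition, Ldha from -0.021 to 0.10 and Slc2a1 from -0.12 to 0.068 under IL-17 inhibition, Hif1a from -0.24 to 0.029 between the inhibitors and from -0.030 to 0.16 after the sort.

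For untreated against healthy animals, the library term and healthy animal 1 alone each gave 10 higher and 0 lower. Both of these rest on healthy animal 1 and are the same contrast. Scaling by library size gave 4 lower, a fit of the 2 groups alone 2 lower and a sex term 0 lower. Over all genes these fits called 4030 of 14348, 2050 of 12376 and 1942 of 14348 lower. Members higher and lower were 1 and 0 in Il6+, 3 and 0 in Mmp3+ and 0 and 0 in Pi16+ fibroblasts, with 2 higher in Cd200+ and 7 in lining. Signs turned in Il6+ fibroblasts for Tpi1 (-0.022), Pgk1 (-0.047) and Ndufa4l2 (-0.44). In Mmp3+ fibroblasts they turned for Pfkfb3 (-0.070), Pgk1 (-0.10), Pgam1 (-0.069), Eno1 (-0.35), Slc16a3 (-0.37), Bnip3 (-0.35) and Ndufa4l2 (-1.17). In Cd200+ fibroblasts they turned for Tpi1 (-0.33), Pgk1 (-0.22), Eno1 (-0.043), Ldha (-0.19) and Ndufa4l2 (-0.43). In Pi16+ fibroblasts they turned for Pfkp (0.40), Pgk1 (-0.14), Eno1 (-0.045), Ldha (-0.32), Ndufa4l2 (-0.14) and Vegfa (-0.16).

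With TNF inhibition the members higher were 13 by DESeq2, 4 by library size, 14 without the low-count filter, 15 with the sex term, and 0 with the library term or the 2 groups alone. Over all 14348 genes, 661 were higher by DESeq2, 241 by library size, 381 with the sex term and 0 with the library term. Without the filter 436 of 22301 were higher, and with the 2 groups alone 238 of 13895. By class they were 0 in Il6+, 1 in Mmp3+, 2 in lining and 1 (with 1 lower) in Cd200+ fibroblasts. Signs turned for Hif1a with the library term (0.17), in Cd200+ (0.32) and in lining fibroblasts (0.0071), for Epas1 in Mmp3+ (-0.17), in Cd200+ (-0.031) and with the sex term (-0.064), and for Bnip3 in Cd200+ fibroblasts (-0.37).

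With IL-17 inhibition the 2 groups alone gave 4 higher and 2 lower, and the library term 0 and 0. Over all genes the 2 groups alone gave 903 higher and 1098 lower of 13986, and the library term 0. By class the counts were 3 and 0 in Il6+ and 0 and 0 in Pi16+, with 0 higher in Mmp3+ and lining and 0 lower in Cd200+ fibroblasts. Slc2a1 turned by library size (0.039), with the library term (0.22), in Il6+ (0.28) and in Pi16+ fibroblasts (0.43). Pgk1 turned with the library term (-0.024) and in lining (-0.12), Ldha likewise (-0.26 and -0.068), and Vegfa in Cd200+ fibroblasts (0.53).

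Between the inhibitors the members lower were 8 by DESeq2, 10 without the filter, 10 with the sex term, 1 with the 2 groups alone and 0 with the library term. Over all genes these fits called 584 of 14348, 522 of 22301, 388 of 14348, 194 of 13945 and 0 lower. The member counts by class were as follows. They were 0 in Il6+, 2 in Mmp3+, 10 in lining and 0 (with 3 higher) in Cd200+ fibroblasts. Ldha (0.0087) and Hif1a (0.13) turned in Il6+ and Pgk1 (0.23) in Cd200+ fibroblasts. After the FAP sort, library size gave 8 lower, Mmp3+ fibroblasts 8 higher and 6 lower, Cd200+ 2 and 1, lining 2 and 2, and Pi16+ 7 and 2. Over all genes after the sort, library size called 3867 of 13418 lower. There Hif1a turned by library size (-0.0046), in Il6+ (-0.020) and in lining (-0.012), Slc2a1 in Il6+ (0.17), Pdk1 (-0.050) and P4ha2 (-0.037) in Cd200+, and Pgk1 (-0.045), Epas1 (-0.49) and Vegfa (0.26) in lining fibroblasts. The cause of each of these changes was not tested.

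Animals with the same number did not deviate together (r from -0.165 to 0.156), so the numbers do not pair them. A replicate block gave 8 higher with TNF inhibition, 1 higher and 1 lower with IL-17 inhibition, 6 lower between the inhibitors, and 12 higher and 4 lower after the FAP sort.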
